A study of Mus musculus with 4 samples.

Results

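The RUNX transcription factors, their shared partner CBFβ and the ETO corepressors are encoded by 7 mouse genes: Runx1, Runx2, Runx3, Cbfb, Runx1t1 (ETO), Cbfa2t2 and Cbfa2t3 (ETO2). They were taken as named families, not by their values, though earlier results of these data were known. They make up 7 of the 22208 protein-coding gene symbols of the mm9 GENCODE annotation. The locus of each gene was its annotated body with 5 kb upstream. Occupancy of these loci by RYBP was read in mesoderm made from mouse embryonic stem cells, with sequencing of immunoprecipitated chromatin (ChIP-seq).

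The series holds 4 samples, 2 RYBP ChIP replicates and 2 inputs, all from wild type cells of C57Bl/6 X Sv129 strain that grew as embryoid bodies to day 3.75 by the labels and were sorted for FLK1, the VEGF receptor that marks the mesoderm from which blood and endothelium arise. By the design text the replicates came from independent differentiations. The ChIP antibody was anti DEDAF, an alternative name of RYBP. The series' design text names SCL as the precipitated protein and PDGFRa as absent from the sorted cells, while title, antibody and methods name RYBP, and the methods place its ChIP slightly later than the labels do. All cells come from a culture model, the J1 stem cell line by the methods, and no treated or mutant group stands beside them. Peak lists hold no expression values, so the identity of the sorted cells could not be checked against their markers, and the inputs were not analysed here. Replicate 1 held 14794 peaks and replicate 2 held 18154, and the authors' merged list of 22409 regions is the union of both, of which 44.2% were found in both replicates. With 1 group of 2 replicates no test between groups exists. All values below are therefore descriptions, set beside the same value over all genes, promoters or peaks.

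RUNX proteins bind DNA through the Runt domain and need CBFβ, which does not touch DNA itself, for stable binding. Runx1 is required for the emergence of blood stem cells, Runx2 for bone and Runx3 for T cells and sensory neurons, and each gene is known for a distal and a proximal promoter that give proteins with different first residues. The ETO proteins do not bind DNA. They bridge transcription factors, among them SCL with its E-protein partners, to NCOR and histone deacetylase complexes, and ETO itself is known from its fusion to RUNX1 in acute myeloid leukaemia. RYBP is a subunit of non-canonical Polycomb repressive complex PRC1, which ubiquitinates histone H2A, and Polycomb complexes are known to gather at promoters rich in CpG, the dinucleotide that is methylated in most of the genome but not in CpG islands.

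RYBP peaks were found at all 7 loci, and at 6 of them in both replicates, Cbfa2t2 being the exception with a single peak in replicate 2. Over all protein-coding genes 57.1% of loci held a merged region and 38.9% held one found in both replicates. A peak of replicate 1 was held by 43.9% and one of replicate 2 by 53.7%. These shares include short loci, and those of 5 to 10 kb had a median of 0 regions. Member loci ran from 52.3 kb to 323.8 kb. Among genes with loci of 0.5 to 2 times the length of Cbfb 69.7% had a region. For Cbfa2t2 this share was 76.6%. The 7 loci held 30 merged regions, 10 of them at Runx3, 7 each at Runx1 and Cbfa2t3, 2 each at Runx2 and Runx1t1, and 1 each at Cbfb and Cbfa2t2. At each of the 6 loci with peaks of both replicates, the strongest peak of replicate 1 and that of replicate 2 lay in the same region, and this region lay at an annotated promoter of the gene. Cbfb, with 1 region, could not have shown otherwise. The same count was not made over all genes, so it is not known whether these genes differ in it. Where a gene had several promoters the peaks were not spread evenly. At Runx1, Runx2 and Runx3 the strongest peaks lay at later, CpG-rich promoters, and none of the first promoters of these genes had peaks of both replicates.

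The sequences just upstream of a first and a later start site show this contrast for 3 genes whose promoter 2 lay under peaks of both replicates, while promoter 1 had none (Runx1), a weak one of replicate 1 alone (Runx3) or weaker ones than promoter 2 (Cbfa2t3). Promoters are numbered from the 5′ end of the gene, and start sites of protein-coding transcripts within 500 bp count as 1 promoter. Each line gives the 300 bases before the start site, read from the mm9 genome 5′ to 3′ on the strand of the gene, with each CpG in capitals. For Runx1 they lie at chr16:92826312-92826611 and chr16:92697574-92697873 on the minus strand, for Runx3 at chr4:134676267-134676566 and chr4:134708111-134708410 on the plus strand, and for Cbfa2t3 at chr8:125223010-125223309 and chr8:125202595-125202894 on the minus strand.
Runx1 promoter 1: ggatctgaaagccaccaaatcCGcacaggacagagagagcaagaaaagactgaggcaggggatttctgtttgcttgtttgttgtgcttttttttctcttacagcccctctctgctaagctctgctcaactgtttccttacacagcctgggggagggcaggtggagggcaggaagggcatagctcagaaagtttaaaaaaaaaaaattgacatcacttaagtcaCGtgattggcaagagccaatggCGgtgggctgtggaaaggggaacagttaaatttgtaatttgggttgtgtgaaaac
Runx1 promoter 2: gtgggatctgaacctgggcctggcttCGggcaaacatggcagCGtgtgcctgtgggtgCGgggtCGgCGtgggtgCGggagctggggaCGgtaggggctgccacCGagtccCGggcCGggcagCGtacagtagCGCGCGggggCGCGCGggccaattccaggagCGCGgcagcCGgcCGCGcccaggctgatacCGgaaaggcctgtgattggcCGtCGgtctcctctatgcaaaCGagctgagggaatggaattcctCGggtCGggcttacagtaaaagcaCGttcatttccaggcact
Runx3 promoter 1: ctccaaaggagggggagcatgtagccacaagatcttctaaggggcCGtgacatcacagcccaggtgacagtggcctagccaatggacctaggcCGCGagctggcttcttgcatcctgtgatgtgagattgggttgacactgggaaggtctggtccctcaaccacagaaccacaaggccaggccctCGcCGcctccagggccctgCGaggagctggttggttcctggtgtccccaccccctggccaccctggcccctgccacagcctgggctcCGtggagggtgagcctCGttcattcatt
Runx3 promoter 2: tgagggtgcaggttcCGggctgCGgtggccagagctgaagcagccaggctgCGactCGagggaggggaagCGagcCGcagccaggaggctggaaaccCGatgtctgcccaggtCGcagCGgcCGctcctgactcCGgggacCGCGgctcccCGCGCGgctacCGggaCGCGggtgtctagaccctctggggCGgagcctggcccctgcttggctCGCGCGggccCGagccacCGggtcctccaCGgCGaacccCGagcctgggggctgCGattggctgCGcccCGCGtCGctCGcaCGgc
Cbfa2t3 promoter 1: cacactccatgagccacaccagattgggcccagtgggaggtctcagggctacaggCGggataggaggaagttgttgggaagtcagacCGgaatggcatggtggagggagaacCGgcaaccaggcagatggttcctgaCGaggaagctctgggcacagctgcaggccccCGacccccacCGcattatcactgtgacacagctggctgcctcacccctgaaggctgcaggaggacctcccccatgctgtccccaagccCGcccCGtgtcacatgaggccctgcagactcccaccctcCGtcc
Cbfa2t3 promoter 2: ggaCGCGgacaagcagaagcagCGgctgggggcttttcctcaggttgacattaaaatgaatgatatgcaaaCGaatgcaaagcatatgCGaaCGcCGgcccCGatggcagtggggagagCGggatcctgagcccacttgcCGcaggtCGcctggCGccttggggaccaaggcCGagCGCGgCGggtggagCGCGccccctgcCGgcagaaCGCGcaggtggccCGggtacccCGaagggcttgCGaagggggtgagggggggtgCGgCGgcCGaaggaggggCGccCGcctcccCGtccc
These 300 bases held 3 CpG before promoter 1 of Runx1 and 29 before promoter 2. They held 8 and 35 at Runx3 and 9 and 30 at Cbfa2t3. Other promoters with peaks of both replicates had few CpG in this window. Runx2 promoter 2 had 4, Runx1t1 promoter 2 had 7 and Runx1 promoter 3 had 9, so the contrast does not hold for every occupied promoter.

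**Figure D1:**
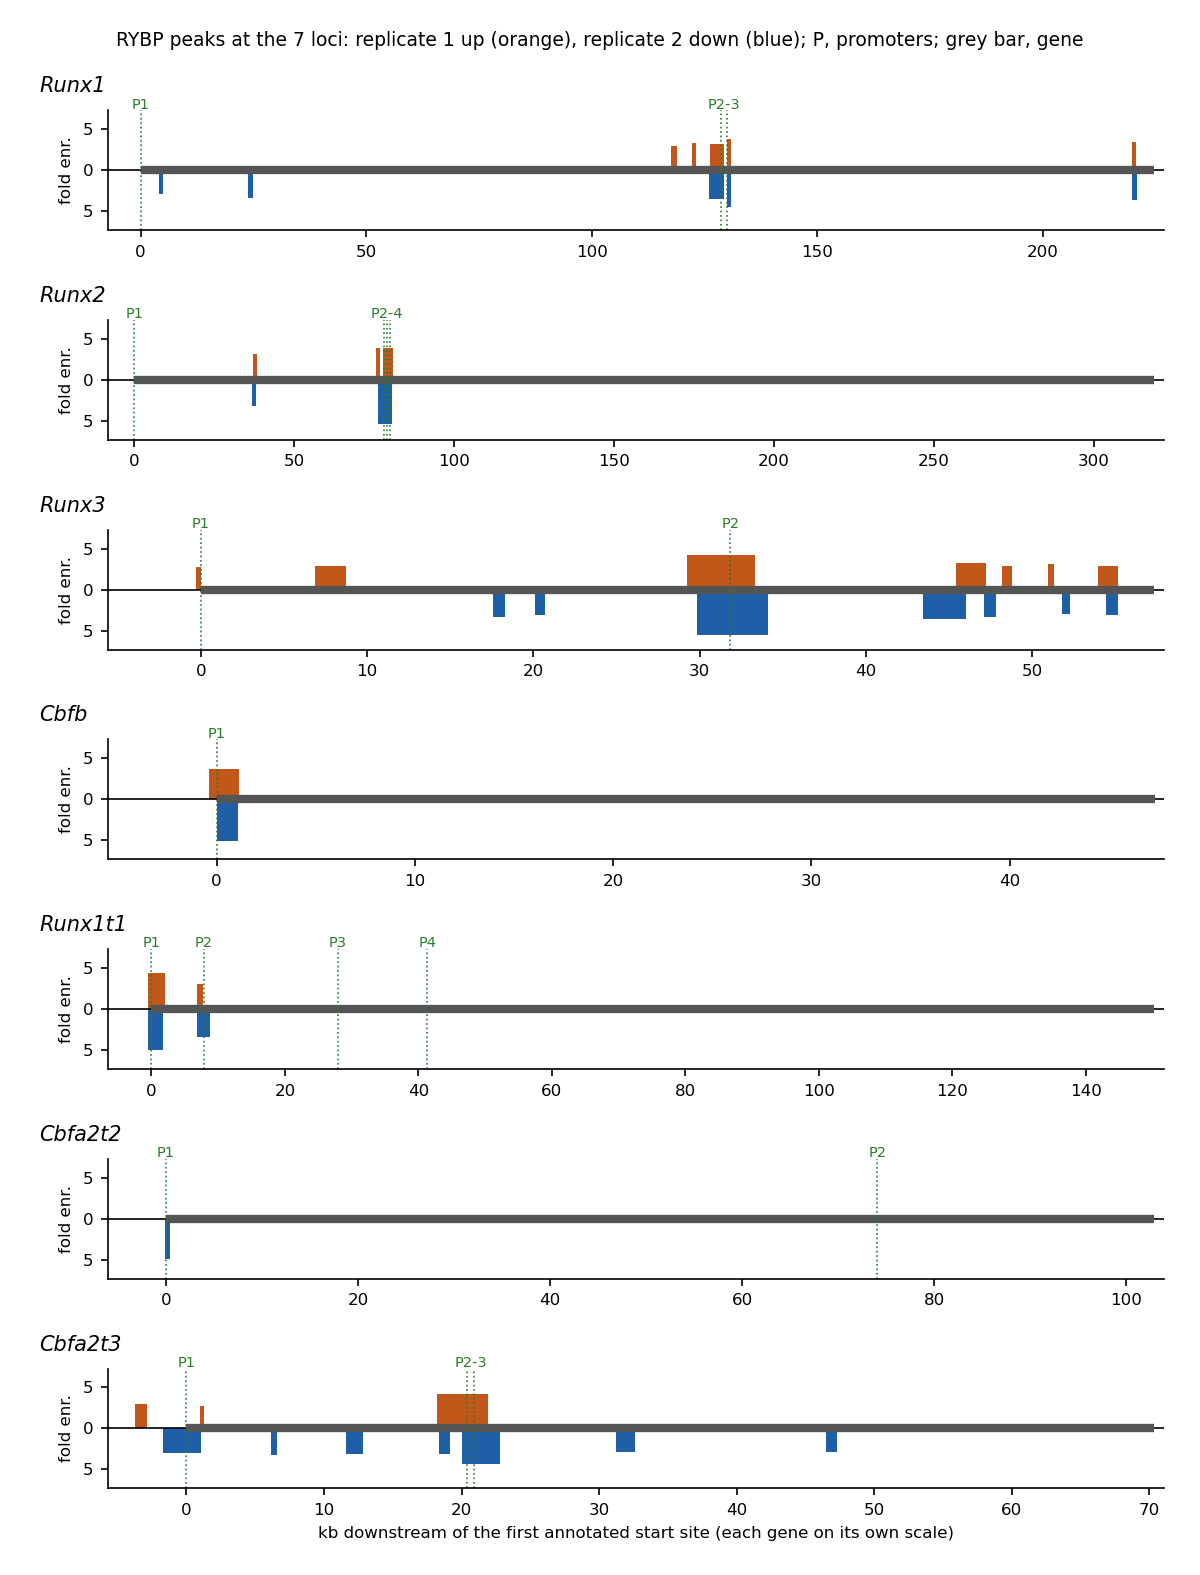
RYBP peaks along the 7 loci, with the distance in kb downstream of the first annotated start site on the horizontal axis and the fold enrichment of each peak as its height, for replicate 1 above the line (orange) and for replicate 2 below it (blue). Dotted green lines are promoters, the grey bar is the gene, and narrow peaks are drawn at 0.4% of the locus length. The tallest bars stand at later promoters in Runx1, Runx2, Runx3 and Cbfa2t3 and at promoter 1 in Cbfb and Runx1t1, and Cbfa2t2 has a replicate 2 bar alone.

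Runx1, on chromosome 16 (92601712-92826311, minus strand), is the member of the family known for blood. Its promoter 1, the distal one at 92826311, had no peak within 2.5 kb in either replicate, and the nearest peak lay 4.07 kb away in replicate 2 and 70.4 kb away in replicate 1. Its promoters 2 and 3, at 92697573 and 92696255, about 129 kb and 130.1 kb downstream, had peaks of both replicates. One region of 3288 bp there, 92697050-92700337, had peaks of 3.14 in replicate 1 and 3.51 in replicate 2 by fold enrichment, where fold enrichment is the ratio of ChIP pile-up to local background that the authors' caller gave. A neighbouring region of 843 bp, 92695423-92696265, over coding exon and UTR sequence, held the strongest peaks of the locus at 3.80 in replicate 1 and 4.49 in replicate 2. These exceed 77.0% and 82.1% of the peaks in their lists. The median of all peaks was 3.29 in replicate 1 and 3.60 in replicate 2, so the peaks over promoter 3 lay above it in both replicates and those over promoter 2 below it.

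Of the 5 other regions of Runx1, 4 were found in 1 replicate. An intronic region 24.1 kb downstream of promoter 1 (92801788-92802174) was seen at 3.43 in replicate 2, and the first intron of Runx1 is known to hold an enhancer active in blood progenitors, whose position was not examined. Another, 4.07 kb downstream of promoter 1, had 2.89 in replicate 2. Replicate 1 alone had intronic peaks of 2.94 and 3.34, which lay 9.81 kb and 6.03 kb upstream of promoter 2. The seventh region (92605911-92606288), found in both replicates at 3.44 and 3.60, lay over the last coding exon, 89.6 kb downstream of promoter 3. In all, merged regions covered 7035 bp or 3.06% of the locus.

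Runx2, on chromosome 17 (44632936-44951746, minus strand), is the bone regulator and has the longest of the 7 loci, 323.8 kb. Its promoter 1 at 44951576 had no peak within 2.5 kb, the nearest being 37.2 kb away in replicate 1 and 36.9 kb away in replicate 2. Promoters 2, 3 and 4, at 44873597, 44872659 and 44871642, shared one region of 5410 bp, 44870626-44876035, the widest of all 30. Replicate 1 had peaks of 3.94 and 3.85 in it and replicate 2 a single peak of 5.34, which exceeded 94.1% of the replicate 2 list. The start of an antisense gene, Gm10497, lies inside this region, and ChIP carries no strand, so the peaks cannot be assigned to one start or the other. The second region of the locus (44913664-44914306, 3.20 and 3.15) lay in a Runx2 intron and over the start of Supt3h, a gene for a subunit of a histone acetylase complex that runs on the opposite strand. No other peak was found, so Runx2 had 2 regions where Runx1 and Runx3 had 7 and 10.

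Runx3, on chromosome 4 (134676567-134733905, plus strand), acts in T cells and neurons and was the most densely occupied of the 7. Promoter 2, at 134708411, lay under a region of 4853 bp (134705814-134710666) with 4.27 in replicate 1 and 5.55 in replicate 2. The latter was the strongest member peak of that replicate, above 95.6% of its list. Promoter 1, at 134676567, was touched by a peak of replicate 1 alone (134676292-134676602), with a fold enrichment of 2.72 that exceeded only 2.00% of the list, and the nearest replicate 2 peak lay 17.6 kb away. The antisense gene Gm16225 starts inside that peak. Thus promoter 1 of Runx3 was occupied in 1 replicate at the lower end of its list, and promoter 2 in both at the upper end.

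Beyond its promoters Runx3 held 8 regions, 2 of them in both replicates. One of 4348 bp lay in an intron (134720011-134724358), with 3.22 in replicate 1 and with 3.60 and 3.30 in replicate 2. The other (134730508-134731720), with 2.82 and 3.03, overlapped the last coding exon. The coding part of that exon begins at 134731215, so the region also covered sequence before it. The 6 regions of a single replicate were intronic and weak. Replicate 1 had 2.88, 2.91 and 3.07 there, and replicate 2 had 3.28, 3.12 and 2.91. Merged regions covered 15445 bp or 24.8% of the Runx3 locus, against a median of 3.58% over gene loci that held a region. This share rests on the union of both lists, since the peaks of replicate 1 alone covered 10229 bp and those of replicate 2 alone 10168 bp. Among 6221 other genes with loci of 0.5 to 2 times its length, 0.402% had 10 or more regions.

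Cbfb, on chromosome 8 (107694574-107741886, plus strand), encodes the subunit shared by all RUNX proteins and has 1 promoter. It held 1 region of 1497 bp over the start site and first coding exon (107694187-107695683). Its peaks reached 3.64 in replicate 1 and 5.08 in replicate 2, above 69.9% and 91.6% of the lists. The replicate 1 peak covered the start site and the replicate 2 peak began 50 bp downstream of it. Cbfb thus showed a plain promoter peak and nothing else, in contrast to Runx1 and Runx3.

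The corepressor genes differed from each other. Runx1t1, which encodes ETO, on chromosome 4 (13670583-13820796, plus strand), had a region of 2657 bp at promoter 1 (13670003-13672659) with 4.33 in replicate 1 and 4.97 in replicate 2. The first was the strongest member peak of replicate 1, above 91.1% of that list. Promoter 2, at 13678444, 7.86 kb downstream, had weaker peaks of 3.08 and 3.47. Promoters 3 and 4, 27.9 kb and 41.3 kb downstream, had none, and their nearest peaks were those of promoter 2. Runx1t1 was thus the 1 gene with alternative promoters among the 7 that had its strongest peaks at promoter 1 in both replicates.

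Cbfa2t2, on chromosome 2 (154262217-154365092, plus strand), had the least occupancy. Its only peak, 511 bp over promoter 1 (154262117-154262627), belonged to replicate 2. Its fold enrichment of 4.90 exceeded 89.4% of that list, and no replicate 1 peak lay within 27.9 kb of the promoter. Promoter 2, at 154336272, had no peak in either replicate. Occupancy of Cbfa2t2 therefore rests on 1 replicate.

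Cbfa2t3 encodes ETO2, a partner of SCL in blood cells. On chromosome 8 (125152639-125223009, minus strand), it resembled Runx3 in the number of its regions and in a wide one at an internal promoter. Promoters 2 and 3, at 125202594 and 125202075, lay under a region of 4553 bp (125200224-125204776) that reached 4.20 in replicate 1 and 4.37 in replicate 2, with a second replicate 2 peak of 3.08. By −log10 q, the caller's measure of confidence after adjustment for all peaks, this was the top member peak of replicate 1 at 7.03, above 96.3% of the list. Promoter 1, at 125223009, was counted as found in both replicates, but its peaks were weak (2.72 and 2.94) and shared 7 bp. The replicate 1 peak lay 1.05 kb downstream of the start site, and the antisense gene Gm10612 starts inside the merged region. Promoter 1 of Cbfa2t3 was therefore only just counted, and within 1 kb of the start site it had no peak of replicate 1.

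The other 5 regions of Cbfa2t3 were each found in 1 replicate. Replicate 1 had one upstream of the gene at 2.94, and replicate 2 had 4 in introns at 3.18, 3.11, 2.89 and 2.83. Regions covered 12424 bp or 16.5% of the locus, and 1.59% of 5402 other genes of like length had 7 or more. Both values rest on replicate 2, as replicate 1 alone had 3 peaks that covered 4851 bp, against 7 peaks and 10301 bp in replicate 2. An annotated read-through gene, Gm20388, spans the whole Cbfa2t3 locus. Its own regions were not separable from those of Cbfa2t3.

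**Figure D2:**
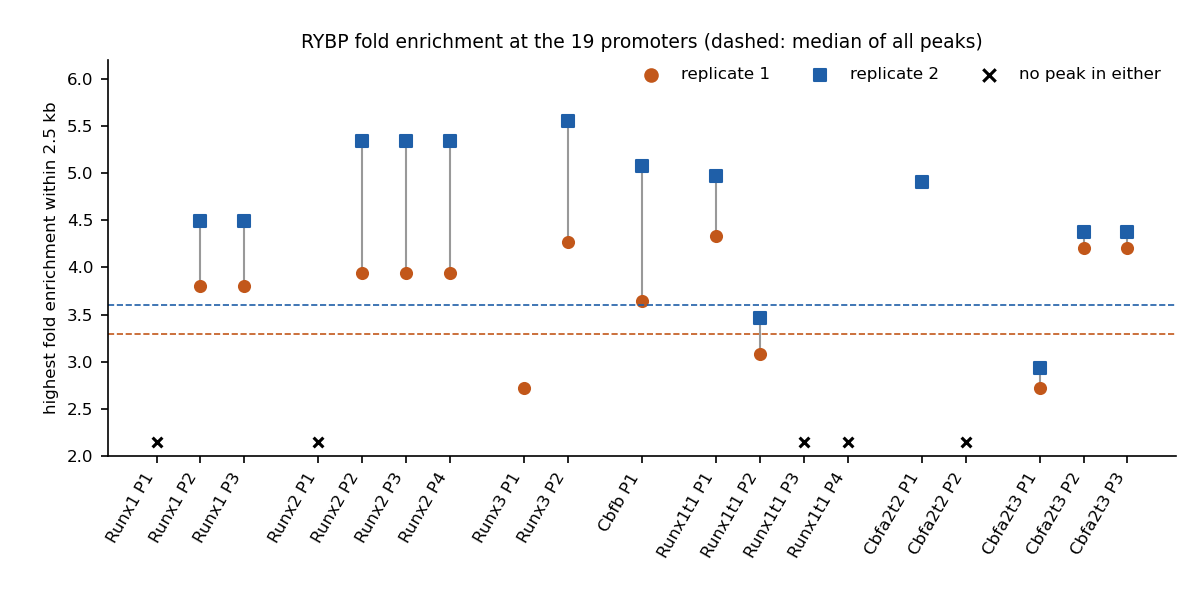
Highest RYBP fold enrichment within 2.5 kb of each of the 19 promoters, for replicate 1 (orange circles) and replicate 2 (blue squares), with grey lines joining the replicates, crosses for promoters with no peak, and dashed lines at the median of all peaks of each replicate. The vertical axis starts at 2. Promoter 1 of Runx1 and of Runx2 has a cross, promoter 1 of Runx3 has a replicate 1 point at 2.72, and later promoters of these genes have points between 3.80 and 5.55. The points of Runx1 promoter 2 are the peaks over promoter 3, which lie within 2.5 kb of it, and the peaks over promoter 2 itself were weaker.

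Counted over promoters, 14 of the 19 had a merged region within 2.5 kb and 12 had peaks of both replicates. Over the 31228 promoters of all protein-coding genes the shares were 45.9% and 31.8%. Several member promoters share a region, so these are fewer independent observations than 19. The 5 promoters with no region were promoter 1 of Runx1, promoter 1 of Runx2, promoters 3 and 4 of Runx1t1 and promoter 2 of Cbfa2t2.

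CpG density divided the promoters in much the same way, and it was no part of how the genes were chosen. It is given as CpG per 100 bp within 500 bp of the start site. The 12 promoters with peaks of both replicates had a median of 8.84, from 2.20 to 13.6, and the 5 with none had a median of 0.899, from 0.799 to 2.20. Promoter 1 of Runx1 had 1.80, its promoter 2 had 8.29 and its promoter 3 had 4.80. The stronger peaks of Runx1 lay over promoter 3, the less CpG-dense of its occupied promoters. For Runx2 the values were 0.899 at promoter 1 and 6.79, 9.39 and 5.99 at promoters 2, 3 and 4. For Runx3 they were 2.40 and 13.0. Of the 12 member promoters with 3 or more CpG per 100 bp, all had a merged region and 11 had peaks of both replicates, the other being promoter 1 of Cbfa2t2 at 10.7. Of the 7 with fewer, 2 had a merged region and 1 had peaks of both replicates, namely the weakly occupied promoter 1 of Cbfa2t3 at 2.20. Over all promoters with 3 or more CpG, 81.7% had a merged region and 59.4% had peaks of both replicates, and over those with fewer the shares were 13.9% and 7.14%, so member promoters were divided in the same direction as promoters in general.

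**Figure D3:**
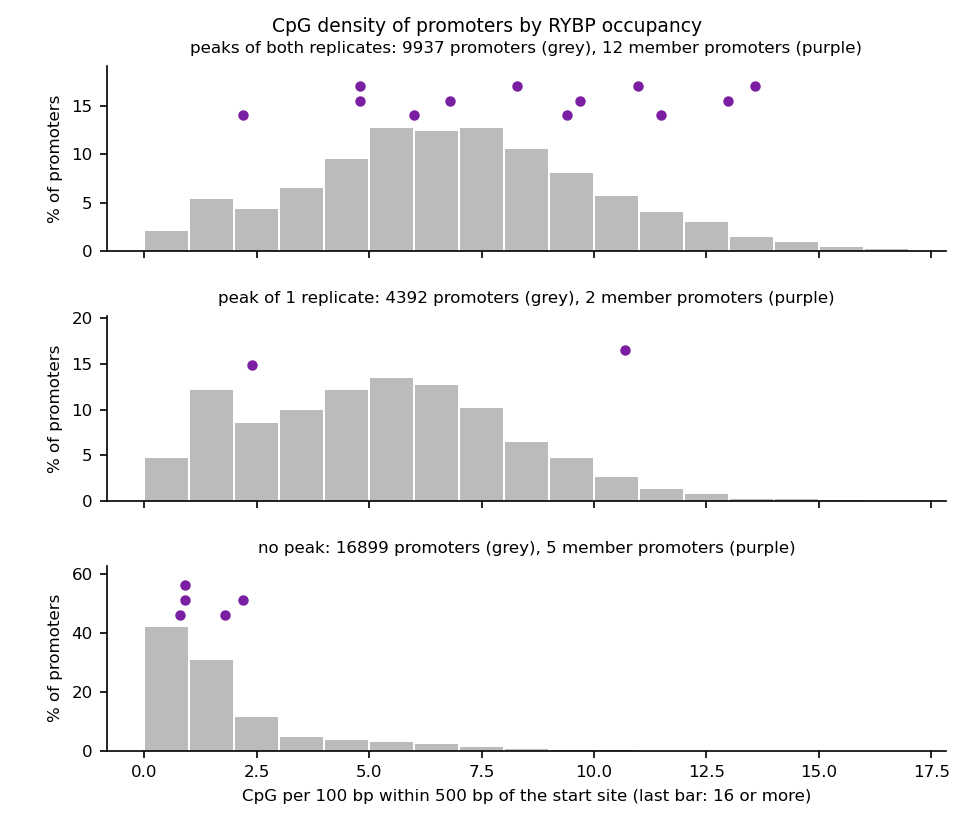
CpG per 100 bp within 500 bp of the start site (horizontal axis) as the percentage of all promoters in each class of RYBP occupancy (grey bars, vertical axis), with the 19 promoters of the 7 genes as purple points whose height has no meaning. Promoters with peaks of both replicates had a median of 6.79 over all genes, those with none 1.20, and all 5 member promoters without a peak lie at 2.20 or lower.

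The arrangement of first and later promoters was then set beside that of other genes, a comparison chosen after the values were seen. Of the 7 genes, 6 had promoters 5 kb or more apart. Runx1, Runx2 and Runx3 had peaks of both replicates at a later promoter alone, Runx1t1 and Cbfa2t3 at both, and Cbfa2t2 at neither. Over 3930 genes with such promoters, 6.39% had peaks at later promoters alone, 39.8% at the first alone, 7.05% at both and 46.8% at neither. In genes whose first promoter was CpG-poor and a later one CpG-rich, as in Runx1, Runx2, Runx3 and Cbfa2t3, later promoters alone were occupied in 55.2% of 337, and both in 7.42%. Occupancy of the 3 Runx genes was thus of the kind most often seen with that layout, which 337 of the 3930 genes had. With peaks of −log10 q of at least 2, the same 3 genes kept this arrangement, Cbfa2t3 joined them and Runx1t1 had peaks at its first promoter alone. With replicate 1 alone Runx3 had peaks at both promoters.

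Regions at and away from the genes' own promoters also differed. Of the 30, 11 lay within 2.5 kb of a member promoter, and 9 of these were found in both replicates. Of the 19 others, 4 were. Together these are 13 of 30, or 43.3%, near the 44.2% of all merged regions. The median width was 2657 bp at promoters and 652 bp elsewhere. The median fold enrichment was 3.72 against 3.01 in replicate 1 and 4.70 against 3.12 in replicate 2. The same division was not made over all merged regions. Whether these genes differ from others in it is therefore not known. Regions of 4 kb or more numbered 4 of 30, against 2.87% of all merged regions. Of these, 3 lay over later promoters of Runx2, Runx3 and Cbfa2t3 and the fourth in the Runx3 intron. The widest single peaks were 3723 bp at Cbfa2t3 and 2595 bp in the Runx3 intron, so 4 kb was reached there by merging. Agreement between replicates was ordinary. Of the member peaks, 66.7% in replicate 1 (14 of 21) and 60% in replicate 2 (15 of 25) overlapped the other list, against 69% and 56.4% of all peaks, with exact 95% binomial intervals of 43.0% to 85.4% and 38.7% to 78.9% that cover counting error only.

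**Figure D4:**
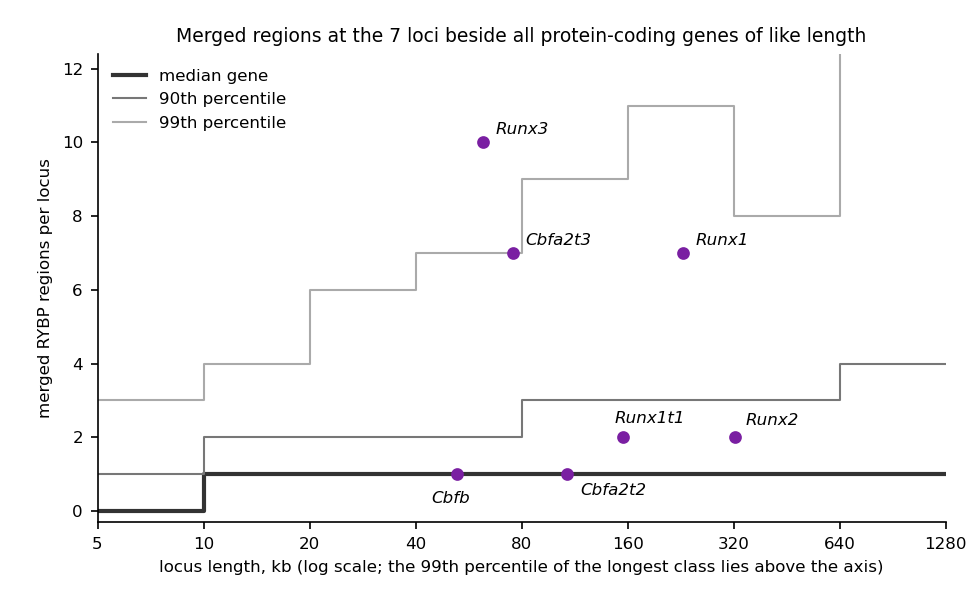
Number of merged RYBP regions per locus (vertical axis) against locus length in kb (horizontal axis, log scale) for the 7 genes (purple) and, as lines, the median, 90th and 99th percentile of all protein-coding genes in length classes. Runx3 at 10 regions lies above the 99th percentile line of 7, Cbfa2t3 lies on it, Runx1 with 7 regions lies between the 90th percentile of 3 and the 99th of 11, and the other 4 genes have 1 or 2.

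Loci with 7 or more regions were 0.72% of all gene loci, and 3 of the 7 genes were among them. For Runx1, 2.90% of 1861 genes of like length had as many regions or more. For Runx2 the share was 31.6%, for Runx1t1 26.5%, for Cbfb 69.7% and for Cbfa2t2 76.6%. The counts of Runx1, Runx3 and Cbfa2t3 rest mostly on regions found in 1 replicate, with fold enrichments of 3.43 or lower. All regions of Runx2, Runx1t1 and Cbfb were found in both replicates, and the Cbfa2t2 region in replicate 2 alone. Counting regions found in both replicates, Runx1 and Runx3 had 3 each, Cbfa2t3, Runx2 and Runx1t1 had 2 each, Cbfb had 1 and Cbfa2t2 had none. With −log10 q of at least 2 the 7 loci kept 11 of 30 regions, with 3 at Runx1, 2 each at Runx2 and Runx3 and 1 at each of the others.

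Of the regions away from the genes' own promoters, 4 were found in both replicates, and that of Runx2 covers the start of Supt3h. Another 2 overlapped the last coding exons of Runx1 and Runx3, whose coding sequence there is CpG-rich. The parts under peaks of both replicates (for Runx3 the first 283 bases of it) are shown because they lie far from any annotated start of these genes. They lie at chr16:92606011-92606111 on the minus strand and chr4:134731215-134731497 on the plus strand, again with CpG in capitals.
Runx1 last coding exon: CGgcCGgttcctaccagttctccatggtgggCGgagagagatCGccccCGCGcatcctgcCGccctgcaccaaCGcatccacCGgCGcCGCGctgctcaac
Runx3 last coding exon: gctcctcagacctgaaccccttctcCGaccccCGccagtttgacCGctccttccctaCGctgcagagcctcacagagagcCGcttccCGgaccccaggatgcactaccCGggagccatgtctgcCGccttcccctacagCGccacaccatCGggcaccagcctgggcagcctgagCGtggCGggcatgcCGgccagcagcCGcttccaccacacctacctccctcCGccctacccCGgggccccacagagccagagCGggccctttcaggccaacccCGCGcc
The stretches hold 12 CpG in 101 bases and 19 in 283. This comparison too was chosen after the values were seen. Of 5 members with a last coding segment of 100 bp or more that lay over 2.5 kb from the gene's own start sites, 2 had peaks of both replicates there, against 2.82% of 11240 such genes, or 6.79% of the 4495 with a segment of 3 or more CpG per 100 bp. The corresponding segment of Cbfa2t3 had no peak although it held 8.24 CpG per 100 bp. Those of Runx2 (1.66 and 3.57) and Cbfa2t2 (3.06) had none either.

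Short motifs for factors of blood development were searched on both strands of the 300 bases upstream of each promoter and at the centre of each region found in both replicates. The RUNX motif, which the Runt domain of all 3 RUNX proteins reads, was searched as TGTGGT. Its second form, which is also read by the Runt domain, was searched as TGCGGT. The motif of GATA factors, which act with SCL in blood progenitors, was searched as AGATAA. Also counted as GATA were the spelling AGATAG, the spelling TGATAA and the spelling TGATAG. The E-box, bound by SCL together with its E-protein partners, was searched as CANNTG. The core of ETS factors, which act beside RUNX1 in blood, was searched as AGGAA. No motif contains another. The RUNX motif was present upstream of 5 of 19 member promoters, against 21.5% of all promoters, and in 6 of 13 region centres, against 20.6% of all such centres. The 6 centres lay at Runx1, Runx2 and Runx3, with 2 in each gene, and none lay at Cbfb or the ETO genes. The E-box was present at 11 of 19 promoters and 8 of 13 centres (72.2% and 63.3% of all). ETS was present at 14 and 7 (66.6% and 49.3%), and GATA at 5 and 2 (31.5% and 11.0%). Among member promoters with under 3 CpG per 100 bp, 4 of 7 held RUNX and 4 of 7 GATA. Over all such promoters the shares were 22.7% and 43.1%. With 3 or more CpG, 1 of 12 held RUNX and 1 of 12 GATA, against 20.2% and 18.6% of all. The upstream windows printed above held 2 RUNX matches for Runx3 promoter 1, 1 each for Runx3 promoter 2 and Cbfa2t3 promoter 1, and none for either promoter of Runx1. A match is a description of the letters and not a bound site.

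Genes for partners of RUNX and ETO proteins were read in the same way. Of 25, 23 (92%) had a merged region at the locus and 21 had one found in both replicates, against 57.1% and 38.9% of all genes. These shares were not matched for locus length. All 4 Groucho corepressors (Tle1, Tle2, Tle3, Tle4), which RUNX proteins recruit through their last residues, were among those found in both, as were the 3 coactivators Ep300, Crebbp and Kat6a (Myst3 in the annotation), which acetylate histones. Of 7 NCOR, SIN3 and HDAC genes 6 had a region, and of 11 genes for DNA-binding partners 10 did. The exceptions were Hdac1, a histone deacetylase, and Gata1, the erythroid factor, which had no peak in either replicate. By the smaller of their replicate maxima the strongest were Hdac2, another histone deacetylase gene (5.55 in replicate 1 and 5.90 in replicate 2), and the Groucho gene Tle3 (4.55 and 5.97). None of the 7 members reached the level of Hdac2 in either replicate.

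Finally, the protein-coding gene most like each member was sought over 4 standardised measures, namely the number of regions (as log2 of the number plus 1), the percentage of the locus covered and the highest fold enrichment in each of the 2 replicates. These were Sorcs2 for Runx1 (distance 0.206), Fbln1 for Runx2 (0.0649), Shank1 for Runx3 (0.326), Ipo4 for Cbfb (0.0337), Brd1 for Runx1t1 (0.0562), A2ld1 for Cbfa2t2 (0.0079) and Syngr1 for Cbfa2t3 (0.153). The distances were largest for Runx3 and Runx1. Shank1 held 9 regions over 25.9% of its locus, with maxima of 4.06 and 5.08, beside 10 regions over 24.8%, 4.27 and 5.55 at Runx3.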

How the data were processed

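Methods of the study state chromatin cross-linked with ethylene glycol bis-succinimidyl succinate and formaldehyde, paired-end reads aligned to mm9 with Bowtie (1.1.2b by the submitters' notes), duplicates removed, and broad peaks called per replicate with MACS2 (2.0.10). The deposited lists give, for each peak, a fold enrichment (the linear ratio of pile-up to local background made by the authors' caller), −log10 p-value and −log10 q-value, and a score that the authors' caller derives from q. The authors' merged list holds positions only. It equals the union of both lists with replicate 2 starts moved by 1 bp (22409 of 22409 regions), so printed starts may be off by 1 bp. Read depth was not used.

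Overlap was at least 1 bp, computed with Python 3.11.15 and numpy 2.4.6, on GENCODE vM1 and its mm9 genome. Promoter windows were 2.5 kb on each side of a start site. A percentile is the share of peaks below a value in its list. Interval code was tested on simulated data. All 7 genes were named with every promoter and peak, as were the 3 strongest partners (1 of which is not reported here), the unoccupied partners and the nearest gene of each member. Members, lists and rules were chosen with earlier results of these data known. Gfi1 was not annotated as protein-coding and its annotated locus was used. Alternatives were stricter peaks, single replicates, other windows, other start sites and other overlaps.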

Additional observations from a re-analysis of the deposited data

How the results depend on the processing

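The number of members with a region stayed at 6 or 7 of 7 under every alternative tried, and that of promoters with a region at 11 to 14 of 19, or 14 of 24 with transcripts of every biotype and 11 of 16 with start sites within 1 kb grouped. The number of regions fell from 30 to 13 when regions found in both replicates were counted and to 11 with −log10 q of at least 2, and ranged from 21 to 25 with a single replicate. Covered length was 47511 bp, and 30493 bp to 35992 bp with a single replicate. Of 56 values of single genes under an alternative, 37 stayed within 1.5 times and 19 moved. The difference in median CpG per 100 bp between promoters with and without a merged region was 7.94, and 7.39 within 250 bp of the start site. By −log10 q the strongest member peak exceeded 96.3% of the replicate 1 list and 94.6% of the replicate 2 list. Requiring 50% of a member peak to be covered left 47.6% of the replicate 1 peaks and 40% of the replicate 2 peaks as shared, while allowing peaks 1 kb apart to match gave 76.2% and 64%. Partner genes with a region numbered 21 to 23 of 25. The number of genes with peaks at later promoters alone was 2 to 4 of 6, under alternatives chosen after seeing the data. No paired analysis was possible because the inputs had no values here and the ChIP samples form 1 group. Read depth is not in the peak lists, so a missing peak is not evidence of absent binding.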

Other observations

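Of the 13 regions at the 7 loci found in both replicates, 12 had the higher fold enrichment in replicate 2, the exception being the intronic Runx2 region at the start of Supt3h, and over all 9901 such regions the share was 77.7%. Cbfb and Cbfa2t3 lie on chromosome 8, where the median fold enrichment of all peaks was 3.03 in replicate 1 and 3.34 in replicate 2, below the 3.29 and 3.60 of the whole lists. Among the chromosome 8 peaks alone, the strongest peak of Cbfb exceeded 79.5% in replicate 1 and 94.5% in replicate 2, and that of Cbfa2t3 exceeded 92.1% and 86.7%. The part of this difference between chromosomes in the values of both genes was not tested.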
